A study of Saccharomyces cerevisiae with 16 samples.

Results

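The genes for the subunits of the budding yeast proteasome, together with RPN4, the transcription factor that activates them, were followed across footprint and mRNA libraries. The members were taken by open reading frame name: 14 genes of the 20S core particle, 19 of the 19S regulatory particle and RPN4 (YDL020C), 34 of the 5574 features listed in the files. All 34 were listed and all 34 passed the filter on low values in every comparison. The libraries came from the laboratory strain BY4741 and from strains carrying a deletion in that background of CAN1, the gene of an arginine transporter, of RPL22A, which encodes a component of the 60S ribosomal subunit, or of TOR1, which encodes a growth-controlling kinase. All 4 strains were grown without further treatment in the rich medium YPD, in 500 ml, to an optical density of 0.5. Footprints, the stretches of mRNA that ribosomes shield from RNase I, were sequenced in 3 libraries of wild type, 3 of can1, 2 of rpl22a and 2 of tor1, with cycloheximide, which halts elongating ribosomes, in the lysis buffer. Poly(A)-selected mRNA from the same lysates gave 2 libraries of wild type, 2 of can1, 1 of rpl22a and 1 of tor1. The labels do not say whether libraries of a strain came from separate cultures, so the p-values speak of the spread among these libraries, which may be technical. The labels also do not say how many clones of each deletion were used. The series title concerns the long replicative life of cells without Can1 and the translation of stress response genes in them.

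The proteasome degrades proteins that carry ubiquitin. Its core particle is a stack of rings, the outer ones of alpha subunits, which gate the chamber, and the inner ones of beta subunits, some of which cut peptide bonds. The regulatory particle has a base, with a ring of ATPases that unfold substrates and with subunits that bind ubiquitin, and a lid, which holds the enzyme that removes ubiquitin. Every subunit of a core ring and of the ATPase ring occurs in the same number of copies, so the subunits of a ring are needed in equal amounts. Rpn4 binds a short promoter element, the proteasome-associated control element, and is itself a short-lived substrate of the proteasome, so that its level and proteasome activity are linked in a feedback loop.

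The promoters are shown because the element is what the genes are known to share. In windows from 250 bases before to 50 bases after the annotated start, read from the RefSeq genome of build R64, the 9 letters GGTGGCAAA or their reverse complement TTTGCCACC stood in 27 of 34 member windows (79.4%). The same letters stood in 69 of all 5454 windows (1.27%). They were found at 12 of 14 core genes (85.7%) and at 15 of 19 regulatory particle genes (78.9%). They were not found at PRE5, PUP1, RPN8, RPN10, RPN13, SEM1 or RPN4 itself. With the last letter left off (GGTGGCAA, which lies within the longer motif) the same number of member windows matched, against 97 of all windows (1.78%). The matches lay between 75 and 174 bases ahead of the start (median 111). The letters read GGTGGCAAA on the strand of the gene in 19 windows and TTTGCCACC in 8. A match of letters is a description and not a measured binding site. The stretches below are those of the 7 matched genes whose footprints differed between the rpl22a strain and wild type, then of PRE7, RPT1 and RPT3, which had the highest or lowest footprint levels. Each runs from 5′ to 3′ on the strand of its gene, with the motif in capitals and 20 bases on either side.
PRE8 (chrXIII:86831-86879, minus strand): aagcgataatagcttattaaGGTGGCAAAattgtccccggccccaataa
PRE3 (chrX:435025-435073, plus strand): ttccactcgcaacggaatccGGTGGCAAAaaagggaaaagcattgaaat
RPT2 (chrIV:437896-437944, plus strand): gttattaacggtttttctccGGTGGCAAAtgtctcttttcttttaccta
RPT5 (chrXV:544845-544893, plus strand): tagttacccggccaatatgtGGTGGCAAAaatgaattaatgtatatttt
RPN1 (chrVIII:164828-164876, minus strand): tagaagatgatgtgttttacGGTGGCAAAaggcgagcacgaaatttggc
RPN2 (chrIX:220791-220839, minus strand): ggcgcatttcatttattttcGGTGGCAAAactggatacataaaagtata
RPN7 (chrXVI:742280-742328, plus strand): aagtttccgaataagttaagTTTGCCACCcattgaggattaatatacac
PRE7 (chrII:141140-141188, plus strand): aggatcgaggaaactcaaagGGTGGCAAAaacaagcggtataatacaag
RPT1 (chrXI:174038-174086, plus strand): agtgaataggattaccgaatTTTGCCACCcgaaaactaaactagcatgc
RPT3 (chrIV:1261485-1261533, plus strand): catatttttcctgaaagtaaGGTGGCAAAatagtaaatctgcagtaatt

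The libraries held between 2.52 and 8.70 times 1e6 reads for footprints and between 7.65 and 26.6 times 1e6 for mRNA, as read from the even steps of the deposited values. A proteasome subunit was covered by at least 53 reads in every footprint library, and the median subunit by 304 to 1140. RPN4 was covered by 46 to 311 footprint reads. The 33 subunits together took 0.559% to 0.655% of the listed footprint reads of a library and 0.669% to 0.876% of the listed mRNA reads. The targeted genes checked the labels: CAN1 had 1, 2 and 1 footprint reads in the can1 libraries against 208 to 582 in wild type, and TOR1 had 2 and 1 in the tor1 libraries against 129 to 285. RPL22A had 5 and 17 footprint reads in the rpl22a libraries against 1883 to 7862 in wild type. Levels below are RPKM (reads per kilobase of listed length per 1e6 reads) after scaling between libraries of an assay, and changes are differences of log2(scaled RPKM + 1). In such bulk lysates, fewer cells with a transcript and less of it per cell cannot be told apart.

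In wild type the 33 subunits were high in both footprint and mRNA level. They lay close together in footprints, while their mRNA levels were spread more widely. The median subunit stood at 163 scaled RPKM in footprints, the 87.2th percentile of 4897 genes, and at 169 in mRNA, the 89.2th percentile. Mean footprint levels ran from 108 for RPT3 (YDR394W), an ATPase of the base, to 237 for PRE7 (YBL041W), a beta ring subunit, a 2.20-fold range. Mean mRNA levels ran from 53.7 for RPN2 (YIL075C), a scaffold of the base, to 360 for PRE9 (YGR135W), an alpha subunit, a 6.70-fold range. The SD of the log2 level among subunits was 0.26 in footprints and 0.59 in mRNA, against 2.20 and 2.05 over all genes. Counting error, as a root mean square over the 33 subunits, was 0.045 to 0.087 on the log2 scale in the wild-type footprint libraries. This is well under the spread among the subunits.

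The alpha ring was the most even group in wild-type footprints, but not in mRNA, where the ATPase ring (SD 0.28) and the beta ring (SD 0.34) were more even. Its 7 genes, of listed lengths from 605 to 767 bases, had mean footprint levels between 157 (PRE10) and 185 (PRE6), a 1.18-fold range with an SD of 0.091 log2. Their mRNA levels ran from 146 for PRE8 to 360 for PRE9, a 2.47-fold range with an SD of 0.43. PRE9, the one core subunit that yeast can live without, had 184, 160 and 157 scaled RPKM in the wild-type footprint libraries and 365 and 354 in mRNA. PRE8 (YML092C) had 172, 167 and 160 in footprints and 158 and 133 in mRNA. The mRNA of PRE9 was thus above that of PRE8 in both libraries, whereas their footprint levels overlapped. Within single wild-type footprint libraries the highest alpha subunit was 1.17 to 1.35 times the lowest, and in the mRNA libraries 2.31 and 2.66 times.

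Among the other groups of subunits, the beta ring spanned 157 (PUP1, the trypsin-like protease subunit) to 237 (PRE7) in wild-type footprints, with an SD of 0.19. PRE7 had 243, 241 and 227 in the 3 libraries and was the highest core gene in each. The 6 ATPases spanned 108 (RPT3) to 204 (RPT1, YKL145W), the lowest and the highest of the regulatory particle. RPT3 had 113, 105 and 106, and RPT1 209, 212 and 191, with no overlap. In the alpha ring, the beta ring, the lid and the other base subunits, every wild-type footprint library was more even than either mRNA library. In the ATPase ring the libraries overlapped, with SDs of 0.30, 0.34 and 0.31 in footprints and 0.32 and 0.27 in mRNA. Lid genes lay between 115 (RPN3) and 163 (SEM1, the smallest subunit), and the other base subunits between 114 (RPN2) and 171 (RPN1). RPN4 stood far below every subunit, at 16.6 ± 5.16 (SD, n = 3) in footprints and 23.3 ± 1.75 (SD, n = 2) in mRNA, at the 41.2th and 47.5th percentiles.

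**Figure D1:**
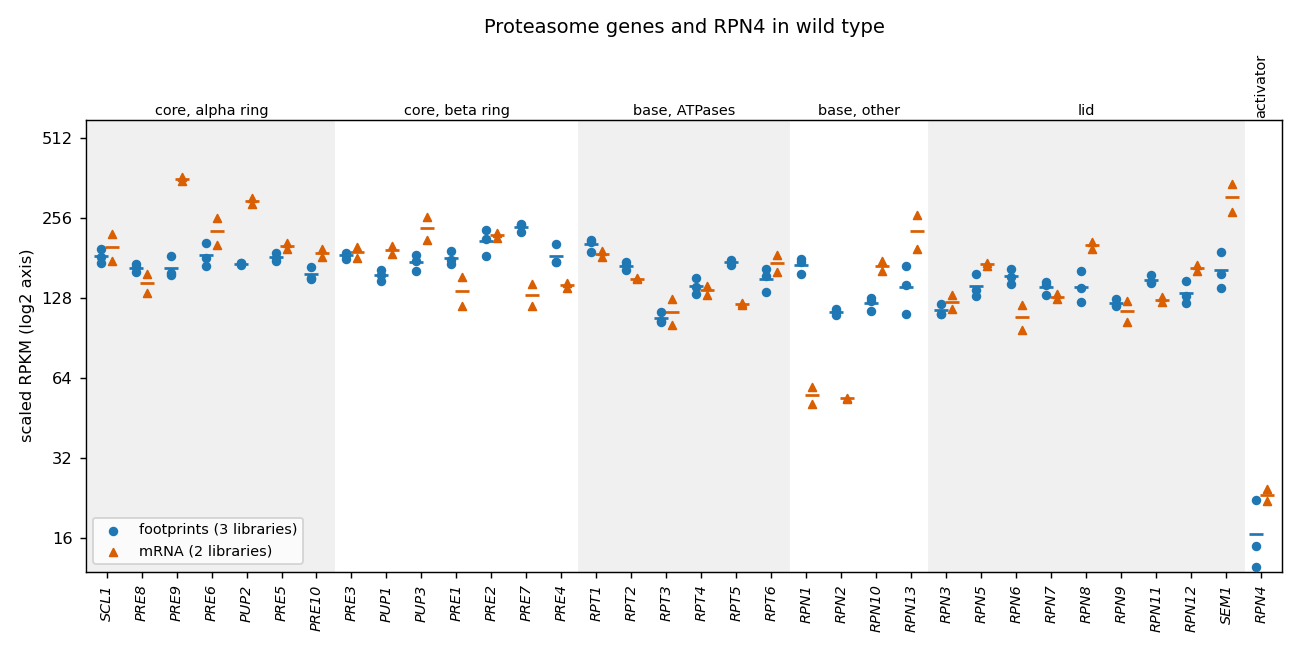
Scaled RPKM on a log2 axis of each proteasome gene and RPN4 in wild type, with circles for the 3 footprint libraries, triangles for the 2 mRNA libraries and bars for their means. The alpha ring lies between 157 and 185 in mean footprint level and between 146 and 360 in mean mRNA level, and RPN4 lies below all subunits.

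Footprint over mRNA in wild type, the difference of the mean log2 levels, ran from −1.11 for PRE9 to 1.61 for RPN1, with a median of −0.08 and an SD of 0.55 over the 33 subunits. Over all 4897 genes the median was −0.12 and the SD 0.98. The low end held PRE9, SEM1 (−0.91), PUP2 (−0.78) and RPN13 (−0.70), and the high end RPN1, RPN2 (1.07) and PRE7 (0.84). RPN1 (YHR027C), the large scaffold of the base that binds ubiquitin receptors, had 158, 179 and 175 scaled RPKM in footprints and 59.3 and 51.4 in mRNA. RPN2 had 111, 114 and 117 in footprints and 53.7 in each mRNA library. For both, every footprint library was above every mRNA library. Across the 33 subunits this ratio went with gene length (Pearson r = 0.63 with log2 length, Spearman rho = 0.42), as it did more weakly over all genes (rho = 0.33). These are correlations across genes, which are not independent replicates, and RPN1 and RPN2 are the longest members. Log2 levels of the subunits correlated at 0.83 to 0.92 between wild-type footprint libraries and at 0.94 between the mRNA libraries, but at 0.23 to 0.50 between a footprint and an mRNA library. Within the 14 core genes the last range was −0.41 to −0.20.

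In the rpl22a strain the footprints of single subunits moved in both directions, and the median of the group lay near that of all genes. At an adjusted p under 0.05 (limma, adjusted over all 4900 genes tested), 4 members rose and 5 fell, 9 of 34, against 19% of all genes (8.82% higher and 10.2% lower). The median change over the members was 0.02 log2, against 0.01 over all genes. Of the core genes 2 of 14 rose and none fell. Of the regulatory particle genes 2 of 19 rose and 5 fell. The members' share of 26.5% is close to that background. In 10 of the 34 members both rpl22a libraries lay above all wild-type libraries, and in 12 below. The share of all genes so placed was not counted, so these counts have no background. In the wider list of 34 related genes described below, 8 lay above and 12 below. With the deposited RPKM taken without scaling, 9 members were called higher, 4 of them among the 9 above, and 0 lower. Of all genes 886 were then higher and 293 lower (24.1%), and their median lay at 0.17 log2.

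Of the alpha ring, PRE8 rose. It had 172, 167 and 160 scaled RPKM in wild type, 161, 159 and 152 in can1, 162 and 162 in tor1, and 221 and 233 in rpl22a. Both rpl22a libraries lay above all 8 others. The change was 0.445 log2 (SE 0.092, 95% interval 0.24 to 0.65, adjusted p = 0.00727 by limma), 1.36-fold. Its neighbours in the ring had smaller changes that did not pass: PUP2 0.26 (adjusted p = 0.086), PRE9 0.23 (0.189), PRE6 0.16, PRE5 0.0024, SCL1 −0.05 and PRE10 −0.10.

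Of the beta ring, PRE3 (YJL001W), the caspase-like protease subunit, rose. It had 181, 190 and 186 in wild type and 222 and 245 in rpl22a, while the can1 and tor1 libraries lay between 171 and 180. The rpl22a libraries were above all others, with a change of 0.33 log2 (SE 0.093, adjusted p = 0.0308), 1.26-fold. PRE4 (YFR050C), a structural beta subunit, had 204, 176 and 176 in wild type and 225 and 236 in rpl22a, a change of 0.32 that did not pass (adjusted p = 0.0588). PRE2 (YPR103W), the chymotrypsin-like protease subunit, had 184, 231 and 213 in wild type and 148 and 167 in rpl22a. Its groups did not overlap, but the change of −0.41 (SE 0.15) did not pass either (adjusted p = 0.0891). With the replicate block described under the processing, PRE4 passed (adjusted p = 0.0276) and so did PRE2 (adjusted p = 0.0117), in a fit where 28.8% of all genes passed. The block covers only wild type and can1 and lowers the shared estimate of the spread. Adjusted p for rpl22a with the block can therefore be too small.

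Of the ATPase ring, RPT2 and RPT5 fell. RPT5 (YOR117W), whose tail helps to open the gate of the core, had 176, 179 and 170 in wild type and 140 and 121 in rpl22a. RPT2 (YDL007W), which also gates the core, had 175, 163 and 171 in wild type and 136 and 125 in rpl22a. In both genes the rpl22a libraries were below every library of the other strains. RPT5 fell by 0.42 log2 (SE 0.11, adjusted p = 0.0257) and RPT2 by 0.38 (SE 0.096, adjusted p = 0.0196). RPT4 had a change of −0.30 (adjusted p = 0.0682), and RPT1, RPT3 and RPT6 had −0.15, −0.16 and 0.11. With the replicate block, under the limit given above, RPT4 had an adjusted p of 0.0266.

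All 4 of the other base subunits changed, RPN1 and RPN2 downward and RPN13 and RPN10 upward. RPN1 had 158, 179 and 175 in wild type and 128 and 115 in rpl22a, and RPN2 had 111, 114 and 117 against 93.0 and 78.0. RPN1 fell by 0.49 log2 (SE 0.11, adjusted p = 0.0106) and RPN2 by 0.41 (SE 0.13, adjusted p = 0.0468). For RPN1 the rpl22a libraries lay below all others, whereas for RPN2 the rpl22a values of 93.0 and 78.0 overlapped the tor1 values of 89.1 and 100.3. RPN13 (YLR421C), a ubiquitin receptor that docks on Rpn2, had 169, 143 and 111 in wild type and 219 and 230 in rpl22a. RPN10 (YHR200W), also a ubiquitin receptor, had 129, 125 and 115 in wild type and 167 and 152 in rpl22a. In both, the rpl22a libraries stood above all others. RPN13 rose by 0.68 log2 (SE 0.16, adjusted p = 0.012), 1.61-fold, and RPN10 by 0.37 (SE 0.10, adjusted p = 0.0295), 1.30-fold. Neither promoter window holds the motif, whereas those of RPN1 and RPN2 do. The windows of PRE8 and PRE3, which also rose, hold it too. PRE5, PUP1, RPN8 and SEM1 lack it and did not pass.

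Of the lid, only RPN7 (YPR108W), a structural subunit, passed. It had 148, 144 and 131 in wild type, 151, 127 and 128 in can1, 142 and 153 in tor1, and 92.3 and 102 in rpl22a. The rpl22a libraries lay below all others. The change was −0.53 log2 (SE 0.12, 95% interval −0.78 to −0.28, adjusted p = 0.00957), 1.45-fold lower. The other 8 lid genes had changes between −0.22 (RPN3) and 0.19 (SEM1), among them RPN11, the deubiquitinase, at −0.15 and RPN8, its partner, at −0.06.

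**Figure D2:**
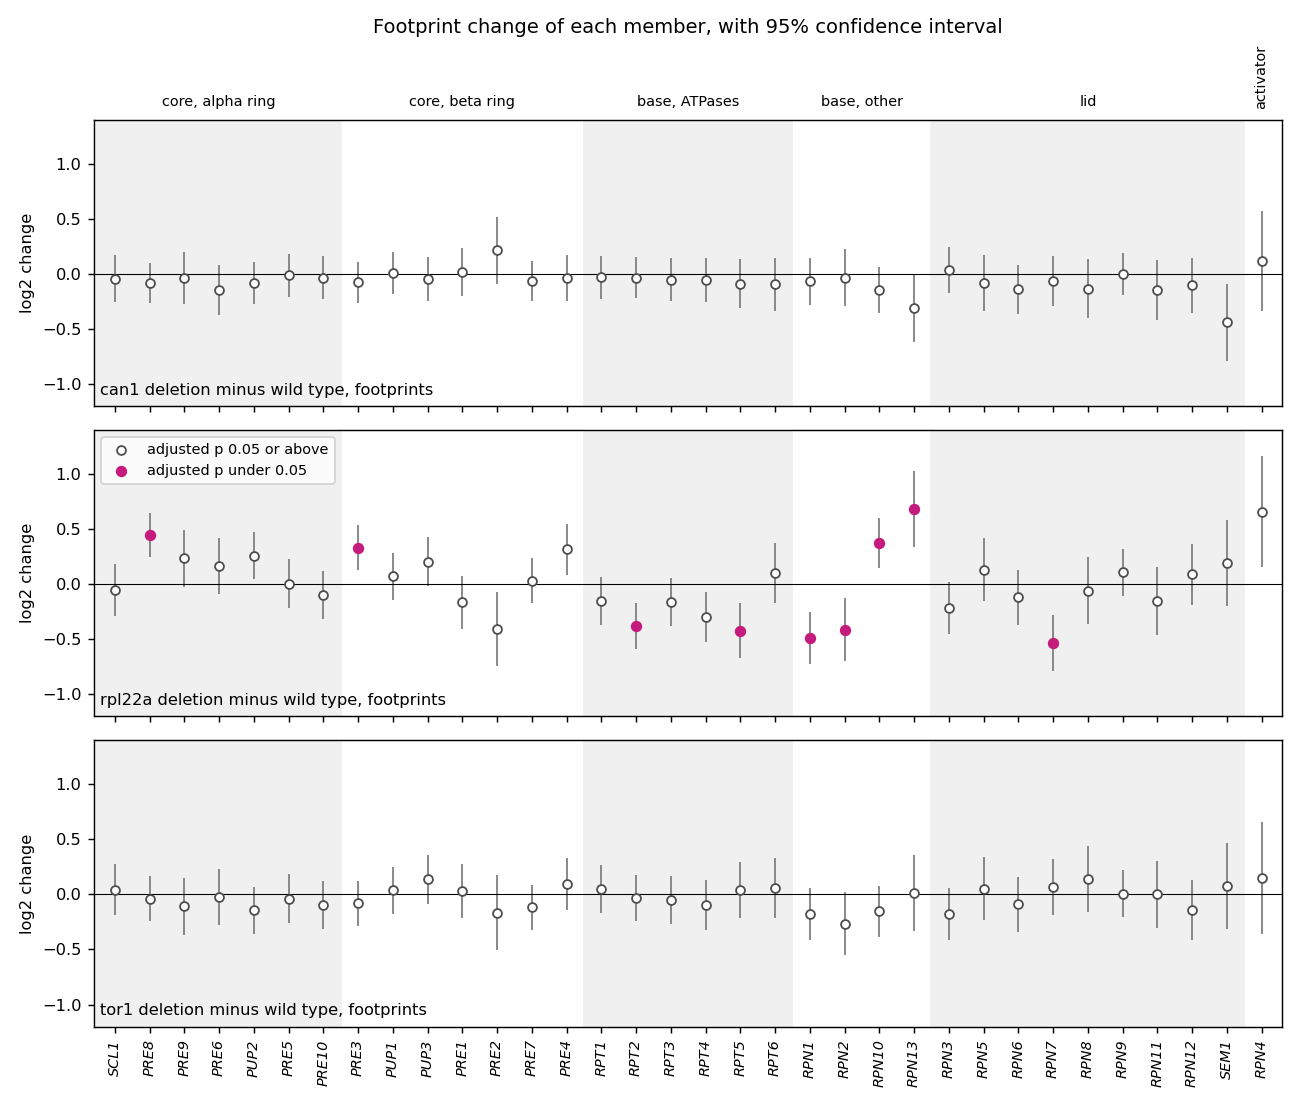
Log2 footprint change of each member in can1, rpl22a and tor1 against wild type, with 95% confidence intervals, ordered by role. Filled circles mark an adjusted p under 0.05, which 9 members reach in rpl22a and none in can1 or tor1.

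**Figure D3:**
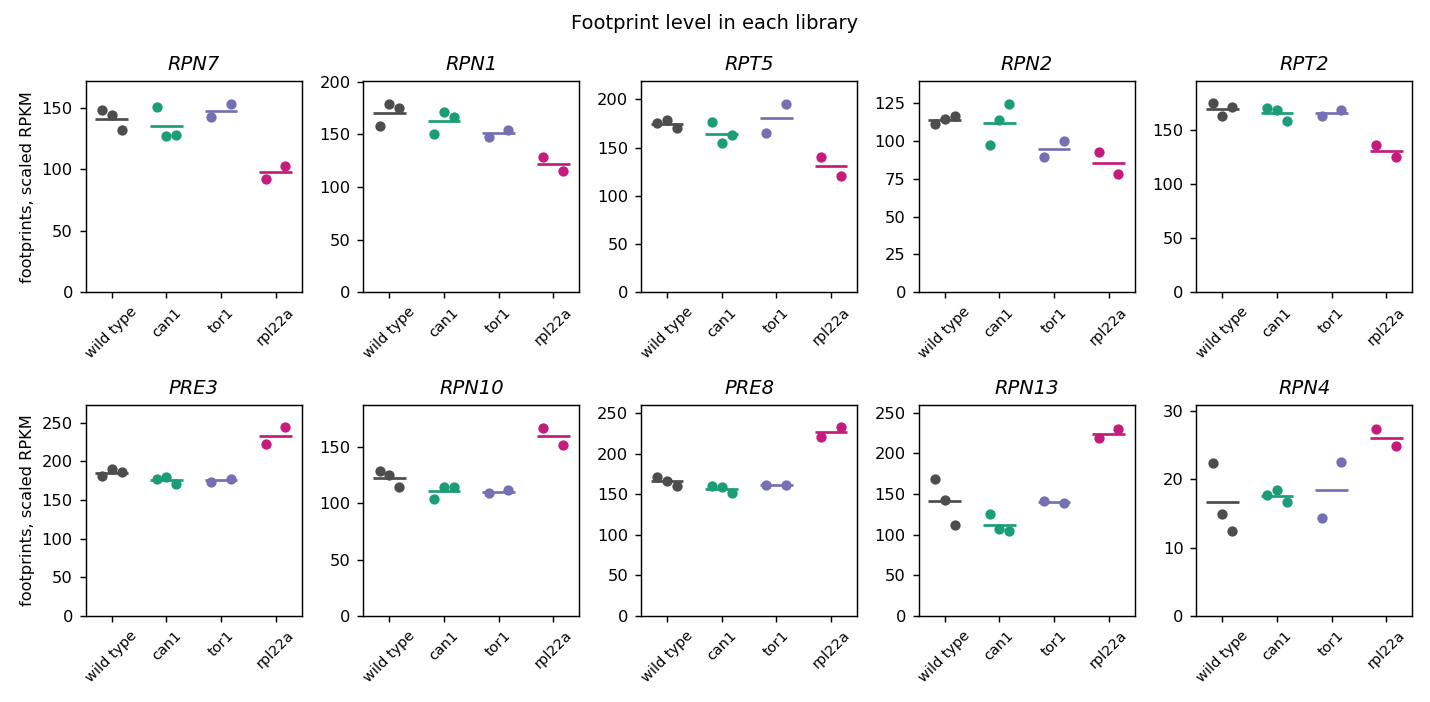
Footprint level in scaled RPKM of the 9 called members and RPN4 in each library, with the mean of each strain as a bar. For PRE8 the rpl22a libraries are at 221 and 233 and all others between 152 and 172, and for RPN7 they are at 92.3 and 102 and all others between 127 and 153.

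The rpl22a calls rest on few libraries. Without rpl22a replicate 2 (3.42 times 1e6 reads) 1 of the 9 passed, RPN7, and without rpl22a replicate 1, wild-type replicate 2 or wild-type replicate 3 there were 5, 5 and 4, each of them among the 9. Of all genes 6.76% passed without rpl22a replicate 2, and 10.8%, 12.9% and 13.0% in the other cases.

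The change in rpl22a also went with gene length, in the members as in all genes. Spearman's rho between the footprint change and the listed length was −0.55 over the 34 members and −0.42 over all 4900 genes. The median change of all genes was 0.33 for lengths under 500 bases, 0.14 from 500 to 1000, −0.04 from 1000 to 2000 and −0.18 from 2000 upward. The members that rose are short (RPN13 371 bases, PRE3 548, PRE8 653, RPN10 707), and those that fell are longer (RPN7 1190, RPT5 1205, RPT2 1214, RPN2 2738, RPN1 2882). With the trend on length removed from each library, 6 of 34 members passed, 2 higher and 4 lower, against 17.2% of all genes. Of these, 5 were among the 9, and the other was PRE1, a beta subunit. RPN1 then had −0.25 (adjusted p = 0.0614), RPN2 −0.19 (0.227), RPN10 0.23 (0.156) and PRE3 0.12 (0.437), while PRE8, RPN13, RPN7, RPT2 and RPT5 still passed. PRE2 and RPN4 lie off the trend, PRE2 low for a gene of 764 bases and RPN4 high for 1496. The part of length in these changes was not tested further.

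**Figure D4:**
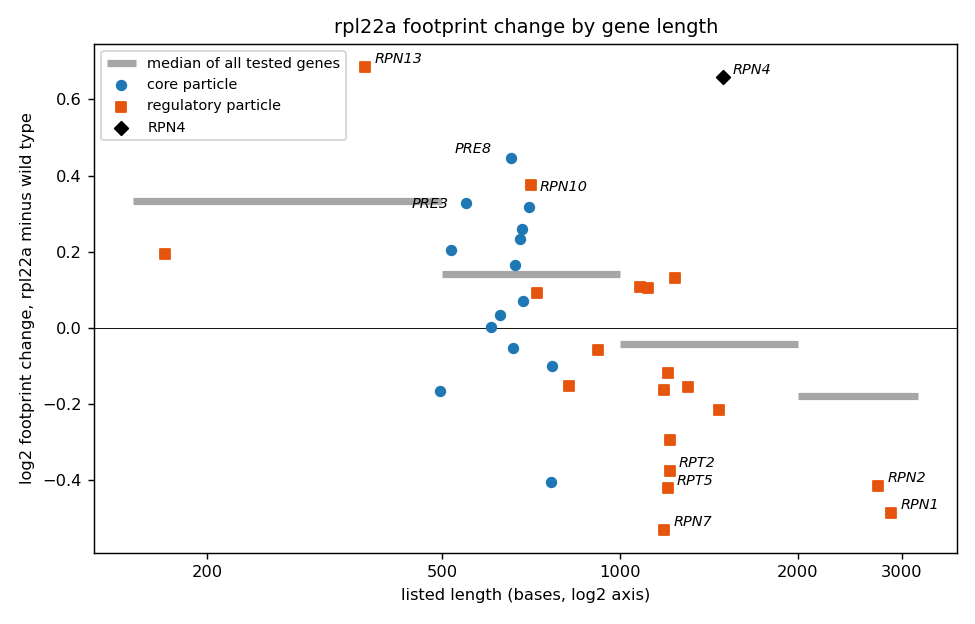
Log2 footprint change in rpl22a against listed length in bases (log2 axis) for the 34 members, with the median of all tested genes in 4 length classes as grey bars. The called members that rose are under 1000 bases long and those that fell are over 1000.

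At the mRNA level no member passed the test between rpl22a and wild type. None of the 34 passed in limma, against 3.6% of all genes, and 0 had an unadjusted p under 0.05, against 784 of all 5281 genes. The median change of the members was −0.13, against 0.02 over all genes, and 25 of 34 values were below 0. The members furthest from 0 were RPT4 at −0.48 (adjusted p = 0.478), PRE6 at −0.45 (adjusted p = 0.532) and RPN4 at 0.40. RPT4 had 142 and 132 scaled RPKM in wild type and 98.2 in the rpl22a library. PRE6 had 255 and 203 in wild type and 167 in rpl22a. For both, the rpl22a value was the lowest of the 3. It was the lowest for 19 of the 34 members in all and the highest for 5. A single library often lies outside the range of so few others. The share of all genes so placed was not counted, so these counts have no background and show no drop of the group. In the wider list of 34 genes described below, the rpl22a value was the lowest for 11 and the highest for 14. With 1 rpl22a library, assumed to vary like the other groups, the 95% intervals of the members reached from −1.06 to 0.91, so changes of the size of the footprint changes were not detectable. The median of all genes moved to 0.27 and that of the members to 0.14 with the deposited RPKM taken without scaling.

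Footprint over mRNA, tested as the interaction of assay and strain, gave no call in the members for rpl22a, and 0% of all 4897 genes passed. Unadjusted p was under 0.05 for 8 members. The values furthest from 0 were 0.93 for RPN13 (95% interval 0.24 to 1.62, adjusted p = 0.269), 0.69 for RPN10 (0.22 to 1.16, adjusted p = 0.26) and −0.66 for RPN2 (−1.25 to −0.07, adjusted p = 0.32). With the replicate block over wild type and can1 RPN13 passed (adjusted p = 0.0252), as did 174 of all genes (3.55%). The limit of the block given for PRE4 and PRE2 holds here too. With the lysate as block across the assays 0 members and 0 of all genes passed. The spread of footprint over mRNA among subunits was 0.38 in rpl22a, against 0.55 in wild type, 0.50 in can1 and 0.55 in tor1. Over all genes it was 0.85 in rpl22a, 0.98 in wild type, 0.97 in can1 and 0.99 in tor1. The rpl22a change of the ratio went with length at a Spearman's rho of −0.62 over all genes and −0.53 over the members. RPN1 stood at 1.05 in rpl22a against 1.61 in wild type, RPN2 at 0.41 against 1.07, and PRE9 at −0.70 against −1.11, whereas RPN13 went from −0.70 to 0.23.

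RPN4 itself had 22.4, 15 and 12.5 scaled RPKM in wild-type footprints, 17.7, 18.4 and 16.7 in can1, 14.3 and 22.5 in tor1, and 27.3 and 24.8 in rpl22a. Both rpl22a libraries were above all others, but the wild-type libraries were spread almost as widely. The change in rpl22a was 0.66 log2 (SE 0.23, 95% interval 0.15 to 1.16) and did not pass in limma (adjusted p = 0.0683). It passed with the replicate block (adjusted p = 0.0362), with the deposited RPKM (0.83 log2, adjusted p = 0.0254) and without wild-type replicate 1 (0.88 log2, adjusted p = 0.0132). The mRNA libraries of wild type had 24.5 and 22.1, those of can1 21.3 and 19.8, that of tor1 24.6 and that of rpl22a 30.9 scaled RPKM of RPN4. The rpl22a mRNA library was the highest of the 6, with a change of 0.40 (SE 0.26, adjusted p = 0.506). The footprint over mRNA change of RPN4 in rpl22a was 0.26 (95% interval −0.50 to 1.02). In can1 the footprint change of RPN4 was 0.12 (−0.34 to 0.57) and in tor1 0.15 (−0.36 to 0.66), neither past the threshold.

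In the can1 strain no member passed in footprints, mRNA or their ratio. In footprints 0 of 34 members passed, against 0.224% of all genes. Unadjusted p was under 0.05 for 2 members and for 234 of all 4900 genes. The median change was −0.06, against −0.0017 over all genes, and 29 of 34 values were below 0, all within 0.44 of it. SEM1 (YDR363W-A) had 192, 140 and 157 in wild type and 142, 129 and 92.5 in can1. RPN13 had 169, 143 and 111 in wild type and 126, 107 and 105 in can1. PRE2 had 184, 231 and 213 in wild type and 195, 268 and 272 in can1. In each of these, the members furthest from 0, the groups overlapped, while between libraries of the same number SEM1 and RPN13 were lower and PRE2 higher in can1 in 3 of 3 pairs. Their changes were −0.44 for SEM1 (95% interval −0.79 to −0.09, adjusted p = 0.904), −0.31 for RPN13 (adjusted p = 0.999) and 0.21 for PRE2 (adjusted p = 0.999). With the replicate block their adjusted p was 0.239, 0.315 and 0.555. The 2 that lay below 0 are among the shortest members, and in can1 the change of all genes went with length the other way from rpl22a (rho = 0.25).

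In can1 mRNA 0 of 34 members passed, against 1.4% of all genes. Unadjusted p was under 0.05 for 0 members and for 395 of all 5281 genes. RPN13 had 263 and 196 in wild type and 202 and 136 in can1, a change of −0.45 (adjusted p = 0.743) with overlapping groups. SEM1 had 345 and 269 against 265 and 200, a change of −0.40 (adjusted p = 0.852), and PRE7 had 120 and 144 against 173 and 171, a change of 0.38 (adjusted p = 0.864). SEM1 was lower and PRE7 higher in both can1 libraries than in either wild-type library. Of the 34 members, 10 were lower and 2 higher in this way. The share over all genes was not counted, and in the wider list of 34 genes 2 were lower and 7 higher. Footprint over mRNA gave 0 calls in the members, against 0.0204% of all genes. Unadjusted p was under 0.05 for 1 member, PRE7, and for 88 of all 4897 genes. PRE7 had −0.45 (95% interval −0.80 to −0.09, adjusted p = 1.00), PRE2 0.31 and RPN6, a lid subunit, −0.31.

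In the tor1 strain no member passed either. In footprints 0 of 34 passed, against 0.0408% of all genes, with a median change of −0.03. No member had an unadjusted p under 0.05, against 354 of all 4900 genes. RPN2 had 111, 114 and 117 in wild type and 89.1 and 100.3 in tor1. RPN3 (YER021W), a lid subunit, had 112, 112 and 122 against 97.3 and 106. RPN1 had 158, 179 and 175 against 147 and 154. In these 3 members, the furthest from 0, both tor1 libraries lay below all wild-type libraries, but the changes of −0.27, −0.18 and −0.17 did not pass (adjusted p = 0.717, 0.746 and 0.763). Of the 34 members, 8 lay wholly below and 1 wholly above wild type. Again the share over all genes was not counted, and in the wider list of 34 genes 4 lay below and 3 above. Over all members the 95% intervals lay between −0.55 (RPN2) and 0.66 (RPN4). In tor1 mRNA 0 passed, against 0.246% of all genes, and 0 had an unadjusted p under 0.05, against 154 of all 5281 genes. SEM1, at 345 and 269 in wild type and 234 in tor1, had −0.38. PRE7, at 120 and 144 against 101, also had −0.38, and PUP3, a beta subunit, at 258 and 213 against 280, had 0.26. Each of these tor1 values lay outside the range of wild type. With 1 tor1 library this was common: 11 of the 34 members lay above and 12 below both wild-type libraries. In the wider list 4 of 34 genes lay above and 12 below, and all genes were not counted. Footprint over mRNA gave 0 calls in members and 0% in all genes. No member had an unadjusted p under 0.05, against 75 of all 4897 genes. The values furthest from 0 were 0.46 for SEM1, −0.27 for RPN1 and −0.26 for RPN3, with an adjusted p of 0.999 each.

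Set directly against each other, the rpl22a footprints differed from those of both other deletions, and those of can1 and tor1 did not differ detectably. Against can1, 7 members were higher and 4 lower in rpl22a, 11 of 34, where 23.7% of all genes passed (11.3% higher and 12.4% lower). The higher ones were RPN13 at 0.99 (SE 0.16, adjusted p = 0.00163), SEM1 at 0.63, PRE8 at 0.53, RPN10 at 0.52, PRE3 at 0.41, PRE4 at 0.35 and PUP2, an alpha subunit, at 0.34. The lower ones were PRE2 at −0.62 (SE 0.15, adjusted p = 0.0157), RPN7 at −0.47, RPN1 at −0.42 and RPT2 at −0.34. RPN13 was 1.99-fold higher, with no can1 library above 126 and no rpl22a library below 219. PRE2 was 195, 268 and 272 in can1 against 148 and 167 in rpl22a, also without overlap. Without rpl22a replicate 2, rpl22a replicate 1, can1 replicate 2 or can1 replicate 3 the called members were 4, 5, 6 and 7, and 7.93%, 13.9%, 15.9% and 14.1% of all genes passed.

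Against tor1, 5 members were higher and 3 lower in rpl22a, 8 of 34, where 14.8% of all genes passed (6.86% higher and 7.9% lower). RPN13 at 0.67, RPN10 at 0.53, PRE8 at 0.48, PRE3 at 0.41 and PUP2 at 0.40 were higher. RPN7 at −0.59 (SE 0.13, adjusted p = 0.0107), RPT5 at −0.46 and RPT2 at −0.34 were lower. PUP2 (YGR253C), with 157 and 155 in tor1 and 220 and 194 in rpl22a, was called against both deletions and not against wild type. These comparisons share the rpl22a libraries, and without either tor1 library none of the 8 passed (4.84% and 7.73% of all genes), while without either rpl22a library 3 did (8.49% and 5.68%). Between can1 and tor1 0 of 34 members passed, against 0.184% of all genes. The furthest from 0 were SEM1 at −0.51 (adjusted p = 0.482), PRE2 at 0.38 (adjusted p = 0.495) and RPN13 at −0.32 (adjusted p = 0.526).

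The balance of the particles, the median log2 level of the 14 core genes less that of the 19 regulatory particle genes, was above 0 in all 16 libraries. The wild-type footprint libraries had 0.22, 0.35 and 0.38, the can1 libraries 0.26, 0.43 and 0.48, the rpl22a libraries 0.59 and 0.53, and the tor1 libraries 0.31 and 0.25. Both rpl22a libraries were higher than every other footprint library. In mRNA the wild-type libraries had 0.46 and 0.60, the can1 libraries 0.48 and 0.38, the rpl22a library 0.49 and the tor1 library 0.44, so that the rpl22a footprints were no longer apart from wild-type mRNA. The core genes are shorter than most of the regulatory particle genes. With the trend on length removed, the mean balance of the rpl22a footprints was 0.40, against 0.34 in wild type, 0.47 in can1 and 0.27 in tor1. On that scale can1 and not rpl22a had the highest mean.

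The SD of log2 footprint level over the 33 subunits was 0.26, 0.29 and 0.27 in the wild-type libraries, 0.29, 0.32 and 0.34 in can1, 0.30 and 0.30 in tor1, and 0.40 and 0.42 in rpl22a. The rpl22a libraries were thus the least even of the footprint libraries, and every mRNA library, between 0.43 and 0.62, was less even still. In the alpha ring the rpl22a footprints spanned 147 (PRE10) to 227 (PRE8), a 1.55-fold range with an SD of 0.20, against 1.18-fold in wild type, 1.18-fold in can1 and 1.30-fold in tor1. These values describe the libraries, with no test.

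**Figure D5:**
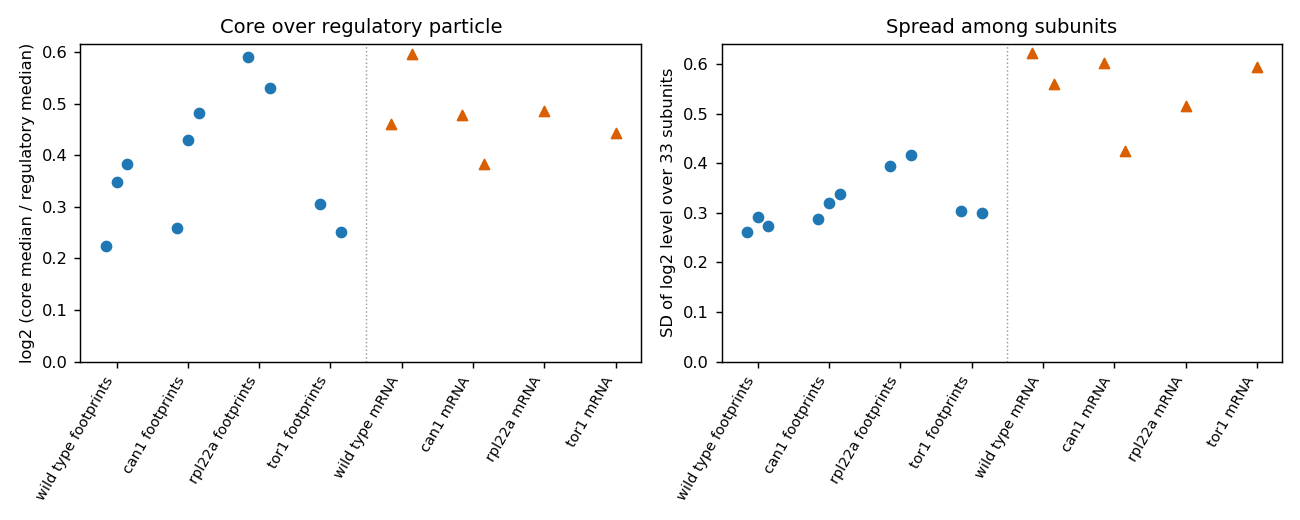
Left, log2 ratio of the median core level to the median regulatory particle level, and right, SD of the log2 level over 33 subunits, one point for each library, circles for footprints and triangles for mRNA. The rpl22a footprint libraries lie at 0.59 and 0.53 on the left and at 0.40 and 0.42 on the right, above the other footprint libraries.

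Of a wider list of proteasome assembly chaperones, proteasome-bound regulators, regulators and turnover factors of Rpn4, ubiquitin enzymes and shuttles, and the Cdc48 complex, 34 of 35 genes were listed on their own and all 34 were tested. In rpl22a footprints 4 rose and 5 fell, 9 of 34 or 26.5%, where 19% of all genes passed. Of the 10 assembly chaperones 3 rose and 1 fell. POC4 (YPL144W) had 26.0, 14.9 and 18.7 in wild type and 46.6 and 36.1 in rpl22a, and its partner IRC25 (YLR021W) had 27.2, 29.2 and 22.1 against 44.5 and 52.7. UMP1 (YBR173C), which is sealed into the new core and degraded as its first substrate, had 141, 149 and 139 against 186 and 245. In all 3 the groups did not overlap, with changes of 1.04 (adjusted p = 0.0136), 0.87 (adjusted p = 0.00326) and 0.57 (adjusted p = 0.00866). TMA17 (YDL110C), a chaperone of the base, had 22.4, 19.4 and 20.7 in wild type and 13.4 and 14.7 in rpl22a, again without overlap, and fell by 0.54 (adjusted p = 0.0437). It was covered by 18 to 65 reads in these libraries. POC4 and IRC25, also short and at similar levels in wild type, were likewise covered by few reads there. The ubiquitin-conjugating enzyme gene UBC5 rose by 0.55 (adjusted p = 0.0364).

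The other genes that fell were UBA1, UBR1, CDC48 and UFD2, of 2408 to 5753 bases, whereas the 4 that rose have 347 to 440 bases and TMA17 has 353. UBA1 (YKL210W), the ubiquitin-activating enzyme, had 243, 252 and 274 in wild type and 157 and 148 in rpl22a. UBR1 (YGR184C), the ubiquitin ligase of the N-degron pathway, had 12.8, 15.4 and 19.6 against 7.0 and 5.5. CDC48 (YDL126C), the ATPase that pulls ubiquitin-tagged proteins out of complexes and membranes, had 462, 494 and 497 against 373 and 365. The rpl22a libraries were below all wild-type libraries in each. UBA1 fell by 0.74 log2 (adjusted p = 0.00105), UBR1 by 1.22 (adjusted p = 0.00169), CDC48 by 0.39 (adjusted p = 0.012) and UFD2, a ubiquitin chain elongation factor that works with Cdc48, by 0.58 (adjusted p = 0.0281). Against can1 6 genes of the list were higher and 6 lower in rpl22a (35.3%, against 23.7% of all genes), and against tor1 3 were higher and 4 lower (20.6%, against 14.8%). UBA1, UBR1, CDC48, TMA17, IRC25, POC4 and the chaperone gene ADD66 were called in both. UBA1 was at −0.77 and −0.55 in these comparisons, UBR1 at −1.24 and −0.85, IRC25 at 0.98 and 1.09, POC4 at 1.41 and 0.96, CDC48 at −0.38 and −0.33, TMA17 at −1.15 and −0.66, and ADD66 at 0.57 and 0.64. In the other 9 comparisons no gene of the list passed in limma, with between 0 and 10 unadjusted p under 0.05. Over all genes these comparisons had between 75 and 784. The motif stood in 4 of the 34 windows of this list (11.8%), those of ECM29, YAP1, UBA1 and CDC48.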

How the data were processed

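Reads were aligned with Bowtie 1.1.2 to genome build R64, per the submitters' processing notes. Per the file headers, the deposited files list for each ORF its name, its length and the RPKM that the authors computed. Nearly all single genes were listed at their coding length minus 100 bases. The treatment of multiply matching reads was not given in the sources used here. Near-identical genes are merged into 116 features. None of the members is merged or overlaps another annotated gene.

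Because the files hold RPKM, changes were tested with limma 3.58.1 (statmod 1.5.0, R 4.3.3) on log2(scaled RPKM + 1), where 1 RPKM is the pseudocount, with trended and robust moderation, 1 fit per assay over all strains, and Benjamini-Hochberg adjustment over all genes tested (4900 in footprints, 5281 in mRNA, 4897 for the ratio). Library totals were read from the steps of low values, and 3 libraries behaved as the mean of 2 runs (the rpl22a mRNA library, wild-type mRNA replicate 2 and wild-type footprint replicate 1), so their reads are approximate. Scaling used trimmed means of log ratios (30% trimmed on fold, 5% on level). A gene was tested with at least 15 reads in total and, in 2 or more footprint libraries or 1 mRNA library, a level worth 10 reads at median depth. The fit of the ratio treats footprint and mRNA libraries of a lysate as independent. In the mRNA fit nearly all of the variance estimate is shared between genes. Levels follow ± SD where given, and changes have standard errors (SE). The fit was tested on simulated data.

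Pairing by replicate number was checked with each library's deviation from its strain's mean (3625 genes). Deviations of equally numbered footprint libraries of can1 and wild type had correlations of 0.66, 0.25 and 0.43. All are over 0.1, so the replicate block joins these. For rpl22a the values were −0.34 and −0.12, and for tor1 −0.02 and 0.02. For mRNA the can1 value was 0.10 (3901 genes), the same for both numbers by construction. The block holds no terms for rpl22a and tor1. It takes replicate differences of wild type and can1 out of the shared spread. With it, p-values in comparisons with rpl22a or tor1 can therefore be too small.

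The members, the gene lists and the tests were chosen with earlier results of these data known. Named genes are RPN4, every member past the threshold, the 3 furthest from 0 where none passed, the highest and lowest members of each particle, and up to 8 genes of the wider list. Other genes were named to complete a ring or group, after their values were seen. Alternatives tried were the scaling, the pseudocount, the filter, the variance trend, the length trend, the replicate block, the strains compared alone and leaving out each library.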

Additional observations from a re-analysis of the deposited data

How the results depend on the processing

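The calls against wild type in can1 and tor1 stayed at 0 under all alternatives run. For rpl22a footprints the 9 called members became 5 with the 2 strains alone and 1 to 11 with a library left out. For rpl22a against can1, 11 became 7 with the length trend removed and 4 to 11 with a library left out. For rpl22a against tor1, 8 became 5 without the variance trend, 4 with the 2 strains alone and 0 to 7 with a library left out. The share of all genes that passed was 15.96% for rpl22a against wild type with the 2 strains alone. Against can1 it was 19.8% with the length trend removed. Against tor1 it was 13.1% without the variance trend and 15.6% with the 2 strains alone. The cause of the changed counts was not tested. With the replicate block 1 member passed for the rpl22a ratio, and the counts were 13 for rpl22a against wild type, 14 against can1 and 9 against tor1, with all members called without the block among them. Of all genes 3.55%, 28.8%, 33.4% and 22.3% then passed, against 0%, 19%, 23.7% and 14.8% without it. All of these comparisons carry the limit of the block given above.

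The mean balance over subunits in place of the median was 0.52 in rpl22a footprints, 0.34 in tor1 footprints and 0.54 in tor1 mRNA, and with the length trend removed it was 0.40 in rpl22a footprints. RPN4, never called in can1 or tor1, changed sign in can1 mRNA with the deposited RPKM (0.045) and in can1 footprints without wild-type replicate 3 (−0.056). With a library left out it ran from −0.16 to 0.46 in tor1 footprints (−0.024 without wild-type replicate 3), from −0.34 to 0.28 in can1 against tor1, and from −0.23 to 0.38 for the tor1 ratio (−0.10 without wild-type footprint replicate 3, −6.58e-05 without wild-type mRNA replicate 1). With the lysate as replicate block the tor1 ratio was −0.10. Leaving out the rpl22a or the tor1 mRNA library gives no value for that strain's mRNA or ratio. With 1 or 2 libraries in these groups, small changes were not detectable.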
